A study of Danio rerio with 21 samples.

Results

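Retinoid carriers and visual cycle genes were followed through the telencephalons of adult zebrafish kept under chronic gamma irradiation. The genes were rbp3, rbp4l, rbp5, rlbp1a, rlbp1b, crabp1 and cyp27c1, chosen because their Ensembl gene name, or their symbol among the retinoid binding and optokinetic behavior terms of the study's enrichment table, is one of these names. The 7 names matched 8 of the 32057 Ensembl genes counted, since 2 IDs carry the name CRABP1 (ENSDARG00000045926 and ENSDARG00000035904), and 7 of the 8 IDs stand in those terms. The study drew these terms from genes it had called in these same libraries, so their direction here is not independent evidence. The other IDs are ENSDARG00000059163 for rbp3, ENSDARG00000044684 for rbp4l, ENSDARG00000101481 for rbp5, ENSDARG00000012504 for rlbp1a, ENSDARG00000045808 for rlbp1b and ENSDARG00000092660 for cyp27c1.

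RNA-seq was performed on 21 libraries from wildtype fish of the AB strain, each made from several pooled telencephalons after 36 days. In batch 1, fish exposed to 5 mGy/h (3 libraries) and 0.5 mGy/h (3 libraries) were set against unexposed controls (3 libraries). In batch 2, fish exposed to 0.05 mGy/h (6 libraries) were set against their own unexposed controls (6 libraries). All exposed fish received external gamma rays of a caesium source, and the replicates are separate libraries of pooled fish whose tanks the labels do not name, so that p-values measure the spread between these libraries.

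Light-sensitive cells detect photons with an opsin bound to retinal, a vitamin A derivative that is bleached by light and has to be regenerated. Regeneration, called the visual cycle, needs enzymes that reduce, isomerise and reoxidise the retinoid, and small carrier proteins that keep this poorly soluble molecule in reach of them. Besides the retina, the pineal organ of fish is itself light-sensitive and makes melatonin. It lies on the dorsal surface of the brain near the telencephalon and shares many of these genes with photoreceptors. Retinoic acid, another vitamin A derivative, acts on gene transcription through nuclear receptors, and its own carriers are widely used in the brain.

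Reads counted on genes numbered between 19.0 and 71.6 M per library. A count of 3, taken as the floor of detection, corresponded to 0.0419 to 0.158 CPM (counts scaled to library size) before TMM scaling. This floor covers counting error only. All other CPM values are given after TMM scaling. The 16 IDs of the telencephalon markers summed to 832 to 1460 CPM, and so were present in every library. Markers of the pineal organ were counted as well, and their mean log2(CPM + 0.5) over 14 IDs is called the pineal gene level below. It lay at 2.85, 2.89 and 3.38 in the 5 mGy/h libraries, while the 0.5 mGy/h libraries had 0.30, 3.02 and 2.25 and the batch 1 controls 3.46, 0.47 and 0.45, each in the order of replicates 1 to 3. Batch 1 thus held 6 libraries with a high level and 3 with a low one, and the low ones were 0.5 mGy/h replicate 1 and control replicates 2 and 3. In batch 2 it ran from 1.35 to 1.82 in the 0.05 mGy/h libraries and from 0.26 to 2.35 in the controls, with control replicate 4 lowest and control replicate 6 highest. The melatonin enzyme genes ASMT (0.547 to 174 CPM) and aanat2 (2.39 to 68.7 CPM) and the photoreceptor transcription factor CRX ENSDARG00000043483 (0.883 to 15.8 CPM) spanned this range, whereas asmt2 stayed between 7.91 and 14.4 CPM. A second crx ID, ENSDARG00000011989, followed it only in part. In batch 1 it held at most 0.0314 CPM in the 3 low libraries. The high ones held 2.83 to 8.64 CPM, except 5 mGy/h replicate 2 with 0.0132 CPM. In batch 2 it did not follow the level, with at most 0.0473 CPM. The retina list (16 IDs) summed to 139 to 210 CPM at 5 mGy/h and 13.1 to 186 CPM at 0.5 mGy/h, against 13.2 to 237 CPM in the batch 1 controls, while no cone opsin exceeded 1.59 CPM in any library. In pooled tissue, fewer cells of a type and less RNA per cell cannot be told apart. How much pineal or other tissue each dissection held was not tested.

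Control replicate 6 of batch 2 stood apart in measures other than the retinoid genes. Its unmapped reads made up 8.66% of the total, against 4.20% to 5.76% in the other batch 2 libraries, and its oxt level was 1273 CPM, against 41.4 to 139 CPM. Changes at 0.05 mGy/h, the contrasts between batches and the medians of the gene lists are given with and without it.

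The extracellular and photoreceptor carriers were the most variable genes. The gene rbp3 encodes the interphotoreceptor retinoid-binding protein, which shuttles retinoids between photoreceptors and their neighbours. It measured 89.0, 104.7 and 137 CPM in the 5 mGy/h libraries and 0.431, 114 and 63.3 CPM in the 0.5 mGy/h libraries, against 181, 7.19 and 5.65 CPM in the batch 1 controls. The 5 mGy/h libraries were all high, and each of the other groups held both high and low libraries. In batch 2 the lowest, median and highest values were 47.4, 57.75 and 89.8 CPM at 0.05 mGy/h, against 8.99, 56.3 and 172 CPM in the controls. Both extremes belonged to the controls, as replicates 4 and 6.

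The gene rbp4l encodes purpurin, a retinol-binding protein that photoreceptors secrete. It measured 226, 215 and 353 CPM at 5 mGy/h and 0.382, 324 and 135 CPM at 0.5 mGy/h, against 506, 6.74 and 1.66 CPM in the batch 1 controls. Its lowest value was 0.0754% of its highest within batch 1, the widest span of the 8 IDs. Batch 2 gave 129.7, 136.5 and 248 CPM (lowest, median and highest) at 0.05 mGy/h, against 19.8, 156 and 982 CPM in the controls. These values depend on strand: its reads numbered 172090 over all libraries when counted by strand and only 3595 when strand was ignored, while for the other IDs both totals were about equal. In RefSeq (GRCz12tu, not the GRCz11 assembly of the alignment) rbp4l overlaps the span of pde6b.

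The gene rlbp1a encodes a cellular retinaldehyde-binding protein, which in the zebrafish eye holds 11-cis retinoids in the pigment epithelium. It measured 14.7, 17.6 and 19.7 CPM at 5 mGy/h and 1.26, 17.2 and 9.32 CPM at 0.5 mGy/h, against 20.5, 1.03 and 1.16 CPM in the batch 1 controls. The same 3 libraries were low as for rbp3 and rbp4l. Batch 2 gave 4.78, 6.03 and 7.72 CPM (lowest, median and highest) at 0.05 mGy/h, against 1.56, 5.63 and 19.1 CPM in the controls. Both extremes were again control replicates 4 and 6.

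Its paralogue rlbp1b, expressed in Müller glia of the zebrafish eye, was scarcer and, in batch 1 only, less steep. It measured 3.63, 3.70 and 4.35 CPM at 5 mGy/h and 0.730, 2.85 and 1.42 CPM at 0.5 mGy/h, against 5.82, 1.01 and 0.989 CPM in the batch 1 controls. The 5 mGy/h libraries all lay above those at 0.5 mGy/h and overlapped the controls. In batch 2 the order of the libraries changed, with 0.375, 1.57 and 2.39 CPM (lowest, median and highest) at 0.05 mGy/h, against 1.04, 1.48 and 9.19 CPM in the controls. Here control replicate 4, the poorest in rbp3, rbp4l and rlbp1a, held a middling 1.32 CPM, and the lowest library was 0.05 mGy/h replicate 4.

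In batch 1 the cellular retinol-binding gene rbp5 was lowest in the libraries that were poor in pineal transcripts, but fell less than rbp3 or rlbp1a. It measured 28.3, 33.5 and 29.4 CPM at 5 mGy/h and 14.2, 28.8 and 22.8 CPM at 0.5 mGy/h, against 36.5, 13.9 and 12.97 CPM in the batch 1 controls. Its lowest value in batch 1 was still 35.5% of its highest, compared with 0.238% for rbp3 and 5.03% for rlbp1a. In batch 2 it measured 13.7, 15.2 and 17.8 CPM (lowest, median and highest) at 0.05 mGy/h, against 11.8, 16.15 and 56.0 CPM in the controls. Of these controls only replicate 6 exceeded 19.2 CPM.

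The 2 genes named CRABP1 encode cellular retinoic acid-binding proteins, and their r with each other was 0.642 over all 21 libraries. ENSDARG00000045926 measured 18.05, 18.1 and 19.4 CPM at 5 mGy/h and 9.01, 12.4 and 10.4 CPM at 0.5 mGy/h, against 18.8, 3.83 and 10.8 CPM in the batch 1 controls. Its 5 mGy/h libraries were tightly grouped and all above those at 0.5 mGy/h. Control replicate 3 and 0.5 mGy/h replicate 1, at the bottom for rbp4l, lay close to 0.5 mGy/h replicates 2 and 3, and control replicate 2 alone was low. Batch 2 gave 10.3, 14.3 and 16.6 CPM (lowest, median and highest) at 0.05 mGy/h, against 15.45, 16.8 and 75.8 CPM in the controls. Control replicate 4, poor in rbp3, held 16.2 CPM and lay among its group mates.

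ENSDARG00000035904 was the scarcest of the 8, with 837 reads over all 21 libraries. It measured 0.827, 0.912 and 0.630 CPM at 5 mGy/h and 0.680, 1.16 and 0.449 CPM at 0.5 mGy/h, against 0.724, 0.486 and 0.738 CPM in the batch 1 controls. In batch 2 it measured 0.698, 1.12 and 1.48 CPM (lowest, median and highest) at 0.05 mGy/h, against 0.783, 1.23 and 3.70 CPM in the controls. In batch 1 both its highest and its lowest value belonged to 0.5 mGy/h libraries, as replicates 2 and 3, and all group ranges overlapped.

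The cytochrome P450 gene cyp27c1 encodes the enzyme that converts vitamin A1 to A2 and thereby shifts visual pigments toward longer wavelengths in fish and amphibians. It measured 27.4, 41.6 and 49.7 CPM at 5 mGy/h and 4.56, 41.1 and 23.3 CPM at 0.5 mGy/h, against 49.5, 5.22 and 6.42 CPM in the batch 1 controls. In batch 1 it was low in the same 3 libraries as rbp3. In batch 2 it measured 6.28, 19.0 and 23.0 CPM (lowest, median and highest) at 0.05 mGy/h, against 5.51, 14.5 and 19.6 CPM in the controls. The low libraries were now control replicate 4 and 0.05 mGy/h replicates 5 (6.28 CPM) and 6 (6.31 CPM), although those last 2 held 89.8 and 50.9 CPM of rbp3 and 248 and 215 CPM of rbp4l.

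**Figure D1:**
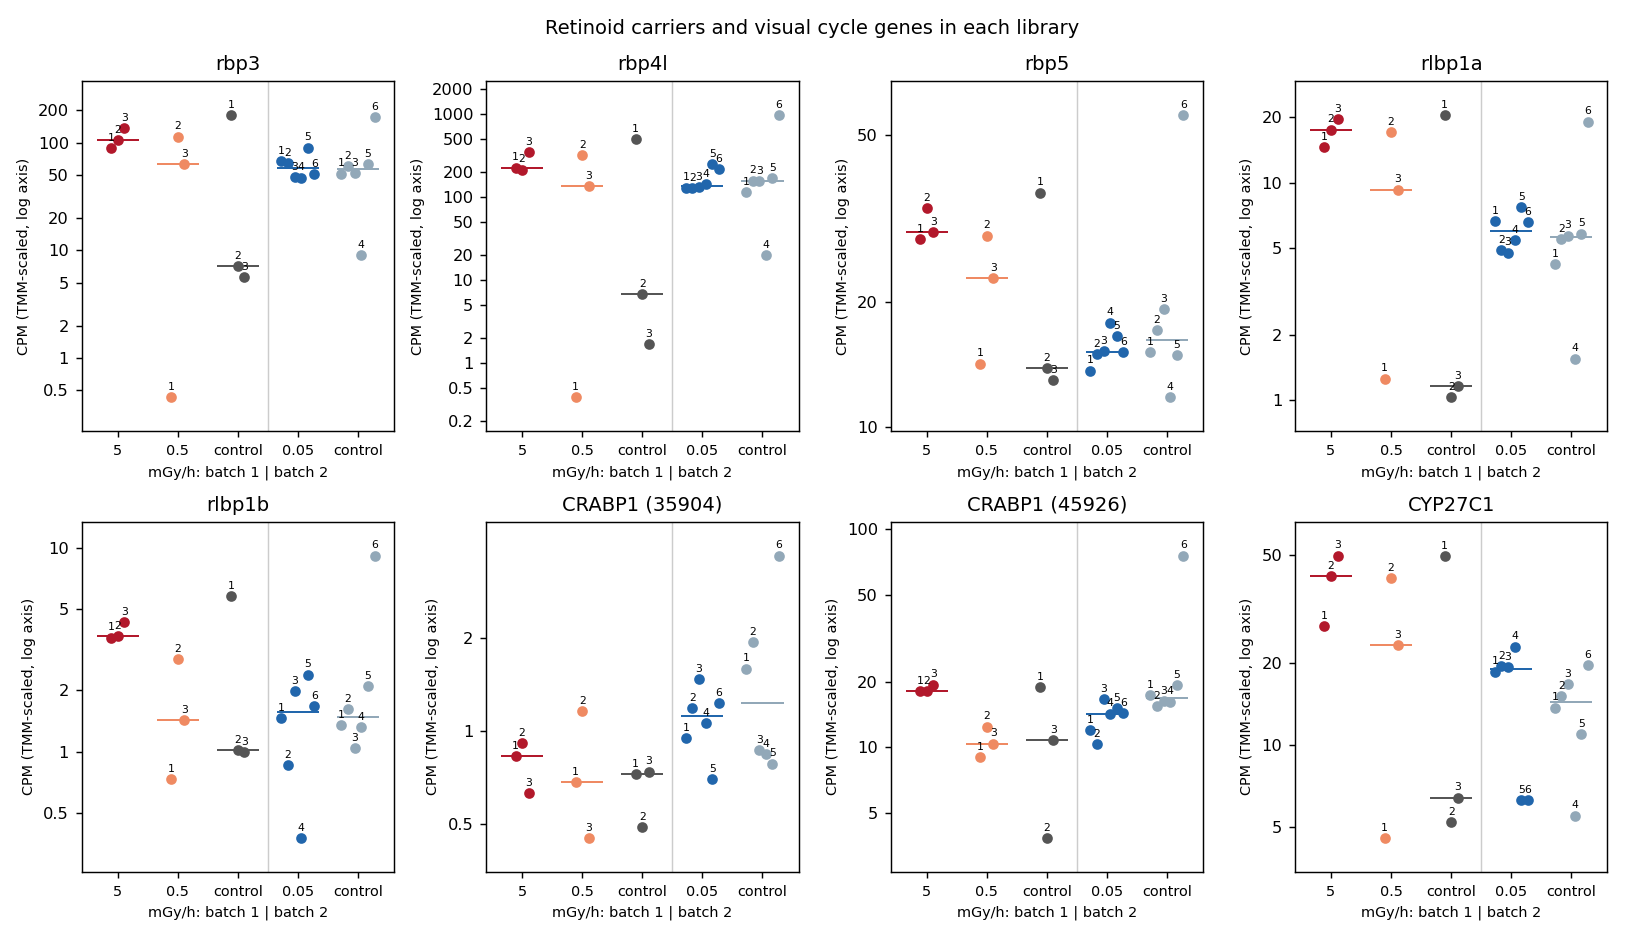
Level of each retinoid gene in each of 21 libraries, in TMM-scaled CPM on log axes, by group (5 mGy/h, 0.5 mGy/h and control of batch 1, then 0.05 mGy/h and control of batch 2). Points are libraries with their replicate numbers and lines are group medians; CRABP1 panels carry the last digits of their IDs. Control replicates 2 and 3 and 0.5 mGy/h replicate 1 are low for rbp3, rbp4l, rlbp1a and CYP27C1, and CYP27C1 is also low in 0.05 mGy/h replicates 5 and 6.

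The group means followed from these libraries. In batch 1 the mean was highest at 5 mGy/h for all 8 IDs, for instance 110 ± 24.5 CPM of rbp3 at 5 mGy/h and 59.2 ± 56.8 CPM at 0.5 mGy/h, against 64.6 ± 100.7 CPM in the controls (SD, n = 3 each). Groups next to each other in the order of the means overlapped for every ID. For ENSDARG00000045926 that order was 5 mGy/h (18.5 ± 0.750 CPM), controls (11.1 ± 7.51 CPM) and 0.5 mGy/h (10.6 ± 1.72 CPM). In batch 2 the mean of cyp27c1 was 15.5 ± 7.31 CPM at 0.05 mGy/h, against 13.6 ± 4.92 CPM in the controls, and the means of the 7 other IDs were lower at 0.05 mGy/h than in the controls, with overlapping ranges throughout (SD, n = 6 each). For 3 of these 7 that order rested on control replicate 6. At 0.05 mGy/h the means were 61.2 CPM of rbp3, 166 CPM of rbp4l and 6.02 CPM of rlbp1a (n = 6), against 47.2, 124 and 4.58 CPM in the 5 controls left without it.

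Whether exposure changed these genes was tested with edgeR's quasi-likelihood test over all genes within each batch. Calls required a fold change of at least 1.5 and a Benjamini-Hochberg false discovery rate (FDR) under 0.05. At 5 mGy/h against controls, 0 of the 8 IDs were called and 0 reached an unadjusted p under 0.05, where the background was 0.00469% of 21307 genes called and 5.76% at that p. All 8 log2 fold changes were above 0, as were 55.6% of all genes, with a median of 0.69 (all genes, 0.028). They ran from 0.29 ± 0.37 (SE) for ENSDARG00000035904 to 1.203 ± 1.205 for rlbp1a, and that of rbp4l was 0.64 ± 2.00. In no ID did the 5 mGy/h libraries all lie above the controls (background 3.74%) or all below them (background 5.48%).

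At 0.5 mGy/h against controls, 0 of the 8 IDs were called (background 0.00469%) and 0 reached an unadjusted p under 0.05 (background 2.37%). The log2 fold changes ran from -0.64 ± 0.74 for rlbp1b to 0.29 ± 1.19 for rlbp1a, with a median of -0.0058, and 4 of the 8 were above 0 (background 53.2%). In no ID did the libraries all lie above the controls (background 4.3%) or all below them (background 6.83%). At 5 mGy/h against 0.5 mGy/h, again 0 of 8 were called (background 0.00469%) and 0 reached that p (background 5.24%), with log2 fold changes from 0.056 ± 0.37 for ENSDARG00000035904 to 1.23 ± 0.75 for rlbp1b, all 8 above 0 (background 56.3%). For rlbp1b and ENSDARG00000045926 all 5 mGy/h libraries lay above all 0.5 mGy/h libraries, as did those of 4.17% of all genes (0 of 8 IDs lay below, background 5.21%), but edgeR's adjusted p was 0.9999 for both, at unadjusted p = 0.138 and 0.115. These 3 comparisons share libraries in pairs and are not independent of each other.

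At 0.05 mGy/h against controls, 0 of the 8 IDs were called (background 0.00514% of 19454 genes). A single ID, crabp1 ENSDARG00000045926, had an unadjusted p under 0.05 (background 4.26%), with a log2 fold change of -0.97 ± 0.40 and an edgeR adjusted p of 0.75 (unadjusted p = 0.0304). The ranges of both groups overlapped, as they did for all 8 IDs (background 0.293% wholly above and 0.637% wholly below), and the value was -0.30 ± 0.12 without control replicate 6 (adjusted p = 0.557). The other log2 fold changes ran from -0.93 ± 0.59 for rlbp1b to 0.17 ± 0.37 for cyp27c1, the only 1 of 8 above 0 (background 48.7%). Without control replicate 6 those of rlbp1b and rbp5 were -0.038 ± 0.36 and -0.010 ± 0.12, that of ENSDARG00000035904 was -0.16 ± 0.29 and that of cyp27c1 0.31 ± 0.37, and 4 of the 8 were above 0. In batch 2 same-numbered libraries deviated together weakly (mean r 0.166, against -0.033 for pairs of unlike number). With the replicate number as a block the count of all genes called was 0 instead of 1. Still 0 retinoid IDs were called, and the log2 fold change of ENSDARG00000045926 was -0.65 ± 0.32 (adjusted p = 0.695).

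With DESeq2 in place of edgeR, 0 of the 8 IDs were called in each of the 4 comparisons and 0 had an unadjusted p under 0.05, and no p was returned for ENSDARG00000045926 at 0.05 mGy/h. Of all genes, DESeq2 called 15 at 0.05 mGy/h, and 1252 had an unadjusted p under 0.05 there. Its counts of called genes in the other comparisons are given with the processing below. Dose rates from the separate batches were compared through an interaction contrast fitted to the 21 libraries together. Again 0 IDs were called, for the change at 0.5 mGy/h minus that at 0.05 mGy/h and for the change at 5 mGy/h minus that at 0.05 mGy/h. Of all genes, edgeR called 0 in both contrasts. In the second of these, 1 of the 8 had an unadjusted p under 0.05 (background 4.42%), ENSDARG00000045926, with a difference of 1.71 ± 0.68 on the log2 scale (edgeR adjusted p = 0.879, unadjusted p = 0.021). In the first, 0 of the 8 had one (background 2.03%). DESeq2 gave the same counts, 0 called in both and 1 at that p in the second. Without control replicate 6 of batch 2, a choice made after seeing the data, 0 of the 8 were called in either contrast, against 0 and 1 of all genes. In the second the difference for ENSDARG00000045926 was then 1.03 ± 0.41 (edgeR adjusted p = 0.514, unadjusted p = 0.0223), the only 1 of 8 at that p (background 8.0%), and in the first 0 of the 8 had one (background 4.63%).

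The batch 1 comparisons depended on single libraries. Over the 6 fits that left out 1 library in turn, the log2 fold change at 5 mGy/h against controls ranged over 0.059 to 5.99 for rbp4l, 0.24 to 4.11 for rbp3 and 0.69 to 3.98 for rlbp1a, with the lowest values of rbp4l and rbp3 without control replicate 3. It ranged over 0.51 to 2.77 for cyp27c1, 0.20 to 1.96 for rlbp1b, 0.33 to 1.35 for ENSDARG00000045926, 0.28 to 1.18 for rbp5 and 0.12 to 0.40 for ENSDARG00000035904. For every ID except ENSDARG00000035904, the highest value came from leaving out the control that was rich in pineal transcripts. Without control replicate 1, the log2 fold changes at 5 mGy/h against the remaining controls were 5.99 ± 2.18 for rbp4l, 4.11 ± 1.68 for rbp3, 3.98 ± 0.99 for rlbp1a and 2.77 ± 0.83 for cyp27c1. Then 7 of the 8 IDs had an unadjusted p under 0.05 (background 5.58%), all but ENSDARG00000035904, whose log2 fold change was 0.37 ± 0.44. Still 0 were called, and the lowest edgeR adjusted p among them was 0.803. At 0.5 mGy/h, 4 of the 8 reached that p without this library (background 2.51%), namely rbp4l, rbp5, rlbp1a and cyp27c1, and 0 were called. Control replicate 1 was the only control rich in pineal transcripts, so without it only controls poor in them remained. Most IDs also rose and fell together in batch 1 (r = 0.985 for rbp3 with rbp4l). The counts of 7 and 4 IDs are therefore not counts of independent results. With only controls poor in pineal transcripts left, these fits cannot tell exposure apart from pineal transcript content, and the cause was not tested. Without 0.5 mGy/h replicate 1, the largest log2 fold change at 5 mGy/h against 0.5 mGy/h was 0.87 ± 0.81, for rlbp1b, with 0 of 8 at an unadjusted p under 0.05 (background 4.53%) and likewise 0 of 8 at 0.5 mGy/h against controls (background 2.88%). Without control replicate 6 in batch 2, 1 of 8 had such a p (background 7.94%), and the log2 fold changes of rbp4l (0.42 ± 0.40), rlbp1a (0.40 ± 0.27) and rbp3 (0.37 ± 0.36) at 0.05 mGy/h had the opposite sign to those with it (-0.70, -0.23 and -0.16).

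**Figure D2:**
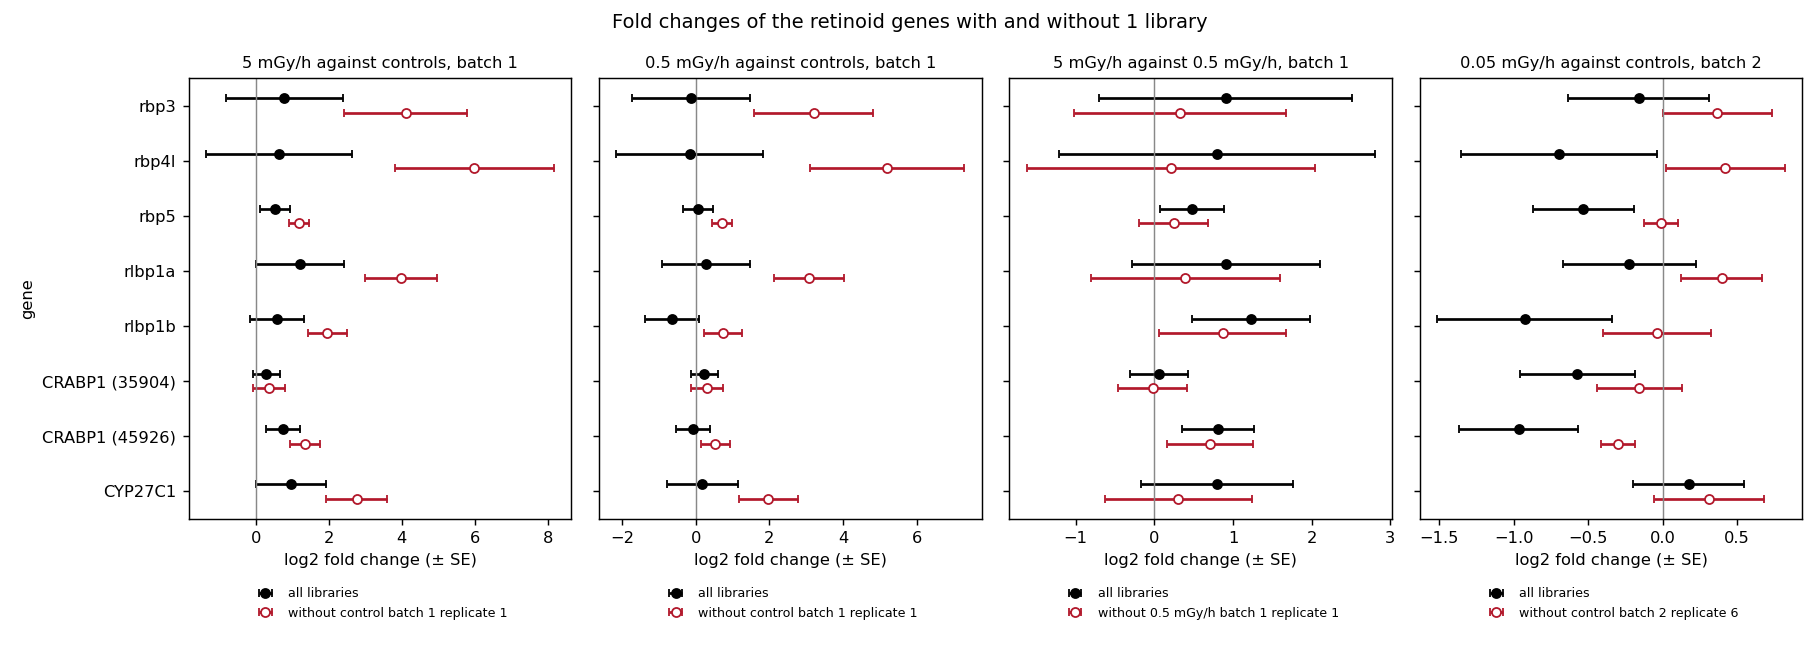
Log2 fold changes (± SE, edgeR) of the 8 retinoid IDs in each comparison, with all libraries (filled) and without 1 named library (open). In batch 1 the changes of rbp4l are 0.64 with all libraries and 5.99 without control replicate 1 at 5 mGy/h, and those of CRABP1 ENSDARG00000035904 are 0.29 and 0.37.

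The pineal gene level itself was not shown to differ between groups. It averaged 3.04 ± 0.296 at 5 mGy/h and 1.46 ± 1.73 in the batch 1 controls, a difference of 1.58 (two-sided exact permutation test over libraries, p = 0.4, adjusted over 4 comparisons 0.8, n = 3 each). At 0.5 mGy/h it averaged 1.86 ± 1.40, a difference of 0.40 from the controls (exact p = 1.0, adjusted 1.0), and 5 mGy/h exceeded 0.5 mGy/h by 1.19 (exact p = 0.3, adjusted 0.8). With 3 libraries against 3, this test cannot go below 0.1. At 0.05 mGy/h it averaged 1.54 ± 0.194, against 1.499 ± 0.693 in the batch 2 controls (exact p = 0.887, adjusted 1.0, n = 6 each).

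The genes differed in how closely they followed this level from library to library. The correlations below are over libraries that share their groups and batches and are given as a description. Over all 21 libraries, with batch means removed, Pearson's r was 0.981 for rlbp1a (Spearman's rho 0.944), 0.968 for rbp4l (0.917), 0.957 for rbp3 (0.949) and 0.880 for cyp27c1 (0.757). It was 0.795 for rbp5 (rho 0.829), 0.732 for rlbp1b (0.835), 0.617 for ENSDARG00000045926 (0.679) and 0.293 for ENSDARG00000035904 (0.165). The libraries of batch 1 fall into 3 with a low and 6 with a high pineal gene level, so that a value over them mainly reflects this gap.

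In batch 1 alone (9 libraries), r was between 0.945 and 0.993 for 6 of the 8 IDs, and lower for the 2 named CRABP1, at 0.799 for ENSDARG00000045926 and 0.389 for ENSDARG00000035904. In batch 2 alone (12 libraries), rbp3 (0.980), rlbp1a (0.934) and rbp4l (0.930) kept a high r, while rbp5 stood at 0.680, rlbp1b at 0.518, cyp27c1 at 0.470, ENSDARG00000045926 at 0.461 and ENSDARG00000035904 at 0.426. Much of that rested on control replicates 4 and 6, the farthest from the median. Without them, over 10 libraries whose pineal gene level differed little, r was 0.821 for rbp3, 0.639 for rlbp1a, 0.422 for rbp4l and 0.314 for rlbp1b. It was 0.085 for rbp5, -0.062 for ENSDARG00000045926, -0.209 for cyp27c1 and -0.619 for ENSDARG00000035904. Thus rbp3, rbp4l and rlbp1a followed the pineal gene level in both batches, but the r of rbp4l in batch 2 rested largely on control replicates 4 and 6. In batch 1 cyp27c1, rlbp1b and rbp5 followed it, but in batch 2 they did not do so closely. In every library rbp5 held 11.8 CPM or more. The 2 named CRABP1 had the lowest r over all 21 libraries and in batch 1.

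Other tissues' marker lists were compared with the pineal gene level in the same way. Over the 21 libraries the r of the summed list was 0.989 for phototransduction genes (a list that pineal and retina share), 0.976 for the retina, 0.753 for pigment cells, 0.571 for the preoptic area and hypothalamus and 0.538 for choroid plexus and meninges. It was 0.385 for the habenula, 0.298 for blood, 0.194 for radial and Müller-type glia and 0.058 for the telencephalon. The pigment list (11 IDs) summed to 227 to 299 CPM at 5 mGy/h and 116 to 372 CPM at 0.5 mGy/h, against 120.0 to 322 CPM in the batch 1 controls, and to 101 to 203 CPM at 0.05 mGy/h, against 99.0 to 321 CPM in the batch 2 controls. This list shares IDs with the visual cycle list read below, so its r is not separate from that of visual cycle genes. The preoptic list (8 IDs) summed to 223 to 394 CPM at 5 mGy/h and 135 to 168 CPM at 0.5 mGy/h, against 73.8 to 406 CPM in the batch 1 controls, and to 163 to 230 CPM at 0.05 mGy/h, against 131 to 1590 CPM in the batch 2 controls. The part of these tissues in the results was not tested.

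**Figure D3:**
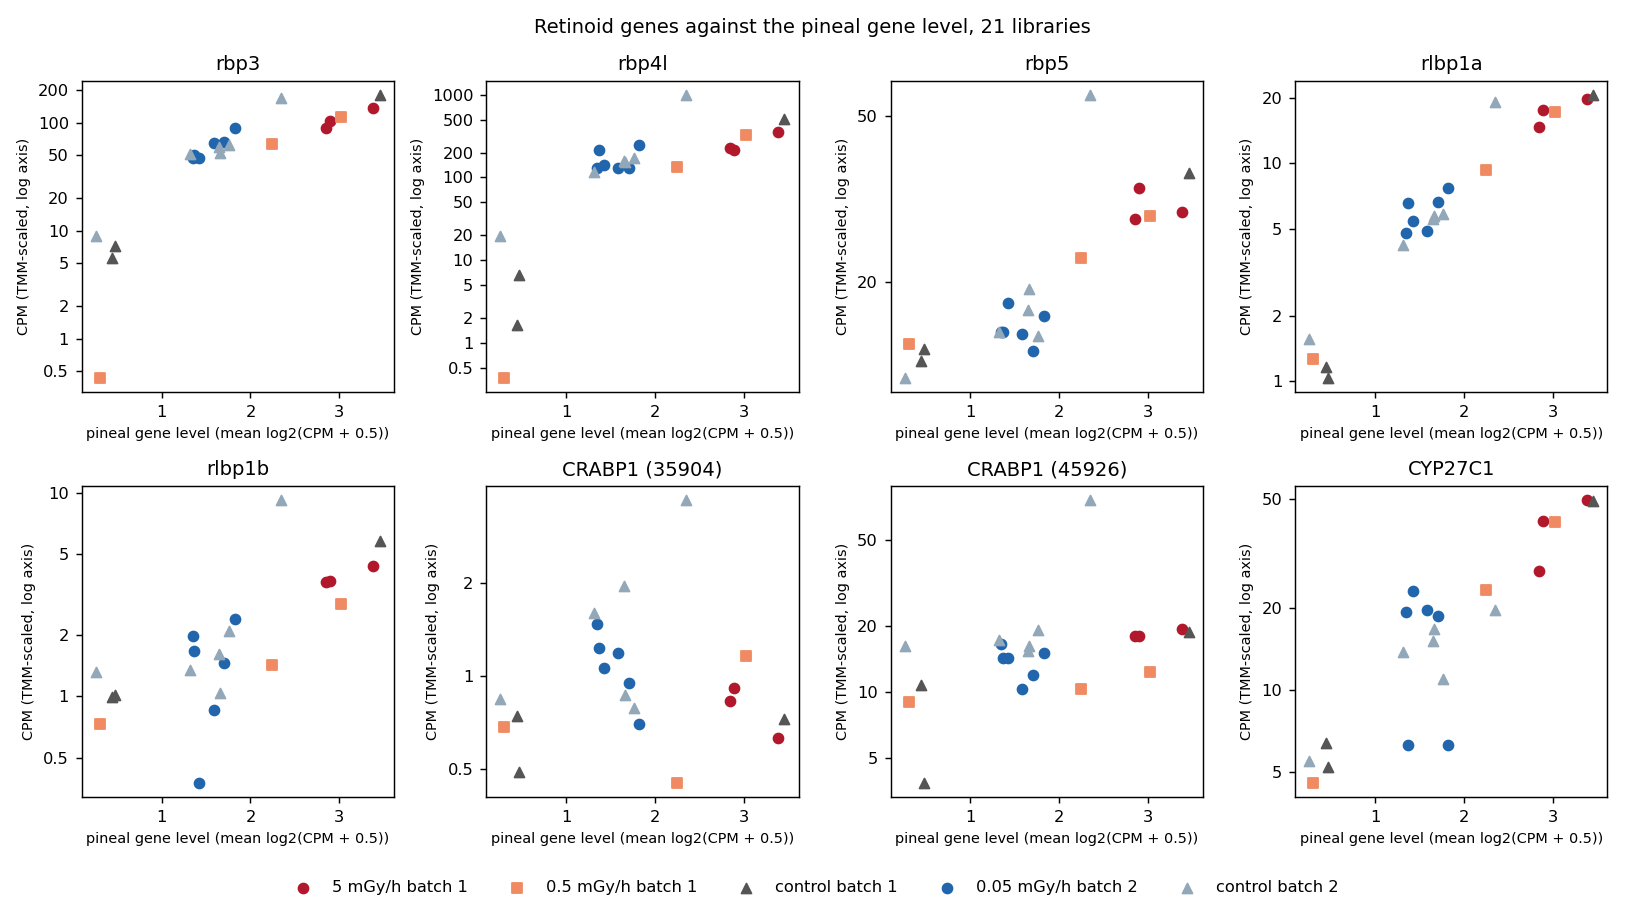
Level of each retinoid gene (TMM-scaled CPM, log axis) against the pineal gene level (mean log2(CPM + 0.5) over 14 IDs) in 21 libraries, coloured by group. Points of rbp3, rbp4l and rlbp1a rise along the axis in both batches, rbp5 stays at 11.8 CPM or more in every library, and CRABP1 ENSDARG00000035904 shows no such rise.

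**Figure D4:**
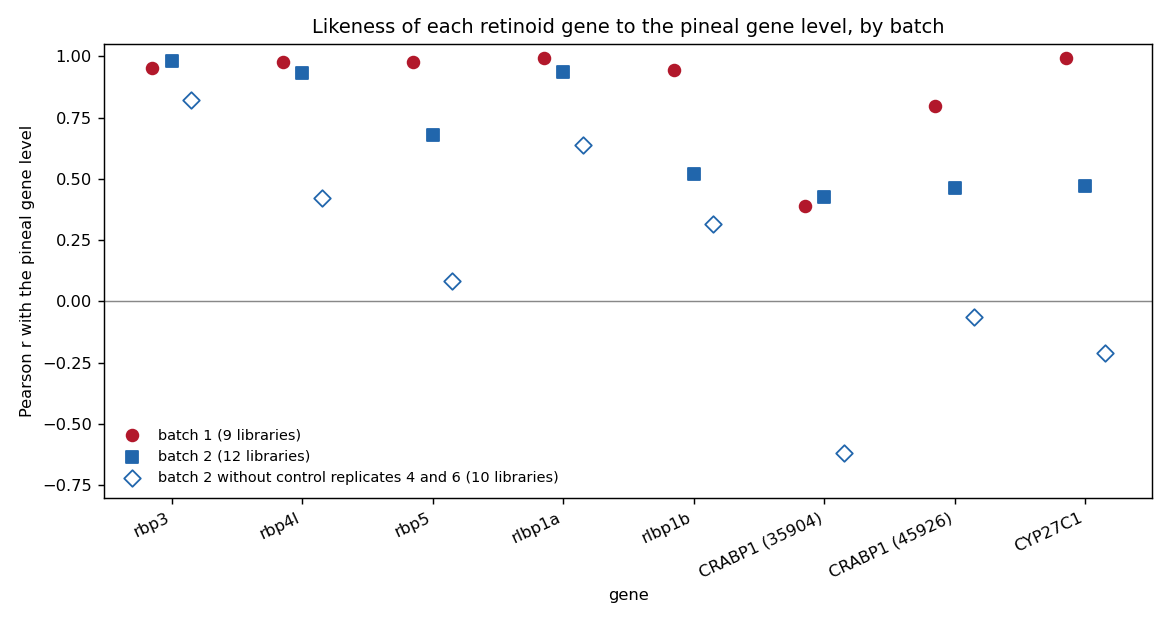
Pearson's r of each retinoid gene with the pineal gene level in batch 1 (9 libraries), in batch 2 (12 libraries) and in batch 2 without control replicates 4 and 6 (10 libraries). For CYP27C1 the values are 0.992, 0.470 and -0.209, and for rbp3 0.953, 0.980 and 0.821.

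The genes most like each of them over the 21 libraries, out of all genes tested, differed accordingly. For rbp3 they were rbp4l (r = 0.980), rdh5 (0.976), an enzyme that oxidises 11-cis retinol, and GNAT1 (0.968), the rod transducin alpha subunit. For rbp4l they were GNG11 (0.983), a G protein gamma subunit, GNAT1 (0.983) and rbp3 (0.980), and for rlbp1a GUK1 (0.987), a guanylate kinase, cngb3.2 (0.984), a cyclic nucleotide-gated channel subunit, and UBTD1 (0.983). For cyp27c1 they were zgc:162144 (0.930), CRX ENSDARG00000043483 (0.923) and syt5a (0.917), a synaptotagmin.

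No phototransduction gene was among the 3 most like the remaining IDs. For rbp5 they included BOK (0.948) and INA (0.947), and for rlbp1b they were UTP14C (0.930), si:ch211-229g11.6 (0.926) and cabp2b (0.896). For crabp1 ENSDARG00000045926 they were oxt (0.931), the oxytocin gene of preoptic neurons, pcolcea (0.896) and PCBD1 (0.881). Its r with oxt was 0.941 in batch 1 and 0.924 in batch 2, but 0.439 in batch 2 without control replicate 6. For ENSDARG00000035904 they were ITGB1 (0.871), pvalb5 (0.861) and TRH (0.858). The highest of the 21 libraries was control replicate 6 of batch 2 for rbp5, rlbp1b and both IDs named CRABP1. How far these ranks rest on that library was not tested.

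The other genes that handle retinoids were read for comparison from 3 lists. Of the other carriers, 7 of 10 IDs were tested in batch 1 and 5 in batch 2. In any comparison 0 were called (background 0.00469% in batch 1 and 0.00514% in batch 2). With 1 of all tested genes called per comparison, 0 calls say little about lists of this size. At 5 mGy/h, 1 of the 7 tested carriers had an unadjusted p under 0.05 (background 5.76%). The median log2 fold change of the carriers was 0.39 for 5 mGy/h, 0.35 for 0.5 mGy/h and -0.38 for 0.05 mGy/h (-0.21 without control replicate 6). The most abundant was RBP4, the serum carrier of retinol, at 141 to 256 CPM at 5 mGy/h, against 92.3 to 293 CPM in the batch 1 controls, and at 1481 CPM in control replicate 6 of batch 2. CRABP2 ENSDARG00000073978 was also among the 3 most abundant. The largest changes at 5 mGy/h were those of RBP7 (1.24), RBP2 ENSDARG00000070038 (1.21) and RBP2 ENSDARG00000093774 (0.95), each with a mean below 1 CPM.

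Of the visual cycle genes, 26 of 27 IDs were tested in batch 1 and 23 in batch 2, and 0 were called (background 0.00469% and 0.00514%). The median log2 fold change was 0.18 for 5 mGy/h, 0.014 for 0.5 mGy/h and -0.38 for 0.05 mGy/h (0.0047 without control replicate 6, against 0.0073 for all genes). Those with the largest values at 5 mGy/h were rdh5 (1.29) and both genes named ABCA4, the photoreceptor flippase that clears retinal (1.26 for ENSDARG00000062661 and 0.90 for ENSDARG00000057169). Like rbp3, they were low in the 3 libraries of batch 1 poor in pineal transcripts, rdh5 at 0.133 to 1.11 CPM in these and at 25.3 to 67.1 CPM in the other 6. Of the 25 IDs that passed the low-count filter over all 21 libraries, 4 had an r above 0.8 with the pineal gene level. The r of the 25 was spread from -0.248 to 0.983, with a median of 0.439. It was -0.020 for the reductase RDH11 and 0.521 for the reductase RDH8 ENSDARG00000028048.

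Of the retinoic acid and carotenoid genes, 20 of 21 IDs were tested in each batch and 0 were called (background 0.00469% in batch 1 and 0.00514% in batch 2). The median log2 fold change was -0.025 for 5 mGy/h, 0.026 for 0.5 mGy/h and -0.022 for 0.05 mGy/h (0.031 without control replicate 6). The most abundant, the carotenoid oxygenase BCO2 ENSDARG00000055722 and the receptors RXRB and RARG ENSDARG00000034117, had an r of -0.061, -0.28 and -0.255 with the pineal gene level. The largest values at 5 mGy/h were those of the receptors RXRA ENSDARG00000035127 (1.30) and rxrbb (-0.76) and of the carotenoid oxygenase BCO1 (0.49). The median r of this list was 0.078, against 0.439 for the visual cycle list and 0.347 for the other carriers.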

How the data were processed

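The authors deposited counts per Ensembl gene for each library, without normalization. Libraries were stranded per the labels, and reads were aligned with RNA-STAR to GRCz11 per the study's methods. In each library 39.9% to 45.0% of reads were not on genes. Column 4 of each file, the strand of this kind of kit, was used, and column 2 (unstranded) was an alternative. The tested column is not given in the sources used here. Gene names matched 28988 of 32057 IDs. The library was the unit of replication. Its group came from the labels.

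Counts were analysed with edgeR 4.0.16 in R 4.3.3 (filterByExpr, TMM, glmQLFit, glmQLFTest) within each batch, and DESeq2 1.42.0 as an alternative. The scripts were tested on simulated data. In batch 2 the deviations of same-numbered libraries correlated at 0.114 to 0.216 in all 6 pairs, a pairing taken from the data and not from a label. The 30 pairs of unlike number ran from -0.23 to 0.261, so the ranges overlapped.

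The genes and lists were chosen with earlier results of these data known. Named are all 8 IDs, the 3 tested genes with the highest Pearson r to each, and, of each list, called genes, the 3 with the highest mean CPM and the 3 with the largest change at 5 mGy/h. Of the pineal list aanat2, ASMT and CRX were named, and exorh was not matched. Correlations used log2(CPM + 0.5). Alternatives were other scalings, filters, tools, fits and left-out libraries. Sequences were not analysed here, and some genes that this rule names are not reported here.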

Additional observations from a re-analysis of the deposited data

Results flagged for a closer look

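Control replicate 6 of batch 2 lay far from its 5 group mates for 6 of the 8 IDs, by the gap to the nearest library relative to the group's range. It held 171.6 CPM of rbp3 (others 8.99 to 62.9), 982.4 CPM of rbp4l (others 19.8 to 171) and 55.99 CPM of rbp5 (others 11.8 to 19.2). It also held 19.14 CPM of rlbp1a (others 1.56 to 5.84), 9.192 CPM of rlbp1b (others 1.04 to 2.10) and 75.76 CPM of CRABP1 ENSDARG00000045926 (others 15.45 to 19.3). It was also the highest control for cyp27c1, CRABP1 ENSDARG00000035904 and the pineal gene level, but not far enough from the others to be singled out. The test was made on 18 sets of 6 libraries, and about 1 in 20 is expected to pass by chance. The 6 values come from a single library and are not independent of each other.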

How the results depend on the processing

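No retinoid ID was called in any of the 77 alternative fits, and 33 of 616 log2 fold changes of single IDs changed sign. The count of all genes called, 1 in each of the 4 comparisons, was 15, 11, 88 and 50 with DESeq2 (in the order 0.05, 0.5 and 5 mGy/h against controls, then 5 against 0.5 mGy/h). It was 3 at 0.05 mGy/h but 0 at 5 mGy/h with library totals alone, 2, 0, 0 and 0 with a single fit of all libraries, 0 in batch 1 with fits of only the compared groups, 0 at 0.5 mGy/h and for 5 against 0.5 mGy/h with at least 10 counts in every library, and 0 in all 4 with the replicate block. Leaving out a library in turn gave 0 to 8 (8 without control replicate 6), 0 to 1, 0 to 1375 and 0 to 1185, the last 2 highest without 5 mGy/h replicate 1. For the interactions, DESeq2 called 3 and 5 genes, and edgeR 0 and 0 (432 and 941 at an unadjusted p under 0.05). Without control replicate 6 of batch 2, edgeR called 0 and 1 genes there (990 and 1711 at that p), and signs changed in the first contrast for rbp3 (-0.50), rbp4l (-0.59), rlbp1a (-0.12) and rlbp1b (-0.62). The causes were not tested.

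With the replicate block, signs changed at 0.05 mGy/h for rbp3 (0.23), rbp4l (0.094) and rlbp1a (0.13), and at 0.5 mGy/h for rbp3 (0.89), rbp4l (1.95) and CRABP1 ENSDARG00000045926 (0.086). Batch 1 numbers did not pair the libraries (mean r -0.154 over 9 pairs). Leaving out a library, the values ranged at 0.05 mGy/h over -0.40 to 0.37 for rbp3, -0.94 to 0.42 for rbp4l and -0.44 to 0.40 for rlbp1a. At 0.5 mGy/h they ranged over -1.02 to 3.202 for rbp3, -1.33 to 5.20 for rbp4l, -0.20 to 0.71 for rbp5, -0.52 to 3.07 for rlbp1a, -1.27 to 0.73 for rlbp1b, -0.20 to 0.50 for ENSDARG00000035904, -0.48 to 0.54 for ENSDARG00000045926 and -0.55 to 1.98 for cyp27c1. For 5 against 0.5 mGy/h, ENSDARG00000035904 ranged over -0.21 to 0.49.

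The difference in pineal gene level ranged over -0.20 to 0.21, -0.19 to 1.40, 1.08 to 2.58 and 0.41 to 1.77 in the same order, with an exact permutation p of at least 0.1 in every case. Its correlation with single IDs moved by more than its leave-one-out error in batch 1 alone for rbp5 (0.978), rlbp1a (0.993), rlbp1b (0.945), ENSDARG00000045926 (0.799) and cyp27c1 (0.992), in batch 2 alone for rbp4l (0.930), rlbp1a (0.934), rlbp1b (0.518), ENSDARG00000045926 (0.461) and cyp27c1 (0.470), and for rbp5 without control replicate 6 of batch 2 (0.940). In batch 2 without control replicates 4 and 6, a choice made after seeing the data like the previous one, it was 0.821 for rbp3, 0.422 for rbp4l, 0.085 for rbp5, 0.639 for rlbp1a and 0.314 for rlbp1b, and negative for ENSDARG00000035904 (-0.619), ENSDARG00000045926 (-0.062) and cyp27c1 (-0.209). With 3 libraries a group, changes smaller than the spread within batch 1 were not detectable.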

Other observations

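The gene gng8, a marker of the habenula, a neighbouring dorsal structure, varied between libraries as well. It measured 6.94, 10.8 and 0.147 CPM at 5 mGy/h and 0.166, 5.60 and 11.7 CPM at 0.5 mGy/h, against 0.204, 0.203 and 0.188 CPM in the batch 1 controls. The 4 batch 1 libraries high in gng8 (5 mGy/h replicates 1 and 2 and 0.5 mGy/h replicates 2 and 3) were all rich in rbp3. However, 5 mGy/h replicate 3 and control replicate 1 were rich in rbp3 and poor in gng8. In batch 2 the highest gng8 value was 9.18 CPM in 0.05 mGy/h replicate 4, whose rbp3 (47.4 CPM) was the lowest of its group. The next highest gng8 value there was 2.21 CPM, in 0.05 mGy/h replicate 2. The habenula list (10 IDs) summed to 44.9 to 80.6 CPM at 5 mGy/h and 50.2 to 85.1 CPM at 0.5 mGy/h, against 44.2 to 49.1 CPM in the batch 1 controls, and to 54.8 to 92.8 CPM at 0.05 mGy/h, against 54.3 to 120.0 CPM in the batch 2 controls. Among the batch 2 controls gng8 itself was at most 1.27 CPM, so this single gene does not stand for the whole list. The part of the habenula in the results was not tested.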
